A study of Mus musculus with 32 samples.

Results

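Late and early dark were compared in the interscapular brown adipose tissue (iBAT) of mice, a fat depot between the shoulder blades that produces heat. The 4 libraries of ZT21 were set against the 4 libraries of ZT15, chosen by the time of collection that their labels give, and these are 8 of the 32 libraries of the series. Zeitgeber Time (ZT) counts the hours from lights on, so ZT15 lay 3 h after the onset of the dark (active) phase and ZT21 3 h before its end. All mice were male C57BL/6J mice of 10 weeks, non-fasted, with free access to chow and water, kept in light and dark phases of equal length at a mildly cold room temperature and killed with CO2. No mouse carried a transgene or received a treatment, and 1 library was made from the iBAT of each mouse. The ZT15 libraries were sequenced on lane 3 and the ZT21 libraries on lane 4, so that time of day and lane cannot be told apart in this comparison. The 4 libraries of ZT18 lay between both times and shared lane 4 with ZT21, and the step from ZT18 to ZT21 within that lane is given for part of the genes. Both comparisons contain the same ZT21 libraries. The step from ZT15 to ZT18 crosses lanes as well, so a ZT18 level near ZT21 cannot be told apart from a lane difference.

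In the cellular clock, ARNTL (also called BMAL1) pairs with CLOCK or NPAS2 and binds E-box motifs, which switches on the Per and Cry genes, Nr1d1 and Nr1d2, and the D-box factors Dbp, Tef and Hlf. The PER and CRY proteins then inhibit that pair, while the REV-ERB receptors encoded by Nr1d1 and Nr1d2 repress Arntl. Mice eat mainly in the dark phase. Brown fat takes up fatty acids that lipoprotein lipase (LPL) releases from lipoproteins, makes fatty acids from glucose, stores both in lipid droplets and burns them for heat through uncoupling protein 1 (UCP1).

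Read counts per gene were scaled to CPM, the counts of a gene relative to all counts of its library, with TMM factors, and 15505 expressed genes were tested. The 8 libraries held 17136479 to 17988526 counts each, at which 3 counts in 1 library correspond to 0.172 CPM, a floor for counting error only. The samples held the markers of brown adipocytes: all 12 were tested, their summed level was 10790 to 13610 CPM at ZT15 and 11510 to 14490 CPM at ZT21, and none passed the test. Skeletal muscle genes varied far more within each time than brown fat genes did. The 17 muscle markers summed to 979.9 to 9731 CPM at ZT15 and to 93.0 to 4179 CPM at ZT21, with a median log2 fold change of -1.26, and none passed the test. The other sets moved less: blood markers summed to 386 to 901 and 336 to 594 CPM, macrophage markers to 62.1 to 151 and 73.4 to 129.7 CPM, stromal markers to 505 to 1061 and 452 to 746 CPM, lymphoid markers to 9.45 to 13.1 and 9.89 to 14.5 CPM, and nerve and Schwann cell markers to 101 to 219 and 92.5 to 146 CPM, at ZT15 and ZT21 in turn, with no member past the test. Of the nerve markers Th, Dbh, Tubb3 and Prph were too low to be tested. Among 10 endothelial markers, summing to 1100 to 1294 and 1110 to 1131 CPM, Emcn was lower at ZT21 (edgeR, log2 fold change -0.42 ± 0.09 (SE), adjusted p = 0.00319). Of 7 tested white adipocyte markers, summing to 238 to 449.8 and 101 to 174 CPM, Lep and Nnat were lower at ZT21. In whole tissue, fewer cells of a type and less RNA per cell cannot be told apart.

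Among the libraries, replicate 1 of ZT15 stood apart. It held the lowest Fasn and Acly and the highest Angptl4, Pck1 and Pdk4 of its group, and its mean chi-square per gene against the other ZT15 libraries was 66.8 to 85.8, where the other pairs of ZT15 gave 8.13 to 13.1. At ZT21 the value was 7.63 between replicates 1 and 3 and 8.98 between replicates 2 and 4, but 18.0 to 21.5 across these pairs. This chi-square gives most weight to genes with high counts. The correlation of log2 CPM was 0.965 to 0.976 for the ZT15 pairs with replicate 1 and 0.983 to 0.989 for the other ZT15 pairs. For the ZT21 pairs at 18.0 to 21.5 it was 0.968 to 0.980. Replicate 2 of ZT15 had the lowest levels of Hspa1a and Hspa1b of its group. Several calls and large changes that rest on replicate 1 or 2 of ZT15 are given with and without that library. For other calls that leaving out either library ended, only the number of fits that lost them or the highest adjusted p is given. Each library is a separate mouse, and p-values measure the spread between mice.

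Between ZT15 and ZT21, 1502 of the 15505 tested genes (9.69%) differed in edgeR's quasi-likelihood test at a Benjamini-Hochberg (BH) adjusted p under 0.05. Of these, 775 genes (5.0% of those tested) were higher and 727 (4.69%) lower at ZT21. Most differences were modest. The median size among the 1502 genes was 0.49 on the log2 scale, a 1.41-fold change, and 194 genes exceeded a 2-fold change, 98 of them higher and 96 lower. The 4 and the 4 libraries did not overlap for 1314 of the called genes and for 2629 (17.0%) of all tested genes. With scaling by library size alone 1296 genes passed, 527 higher and 769 lower, so the balance between directions depended on the scaling. Without ZT15 replicate 1 the count was 1472 (812 higher, 660 lower), without ZT15 replicate 2 it was 1202 (591 higher, 611 lower), and without ZT21 replicate 3 the number of lower genes was 479. With the skeletal muscle marker level of each library as a covariate 1411 genes passed (688 higher, 723 lower), whereas 214 passed in the 2 libraries of each time that were lowest in muscle markers. The mean at ZT18 lay between the means of ZT15 and ZT21 for 1330 of the 1502 genes (88.5%) and for 44.0% of all tested genes. Genes chosen for a difference between the outer times have such a mean more often by selection alone. These shares therefore do not measure a gradual course. Within lane 4, 320 genes (2.06%) differed between ZT18 and ZT21, 192 higher and 128 lower at ZT21, and 101 to 211 did when any 1 of those 8 libraries was left out. Of the 72 members of the pathway lists that differed between ZT15 and ZT21, 17 did so between ZT18 and ZT21. Both comparisons share the ZT21 libraries, so this overlap is no independent result. Unless another fit is named, counts of genes that rose, fell or passed are those of edgeR's test across the 32 libraries.

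**Figure D1:**
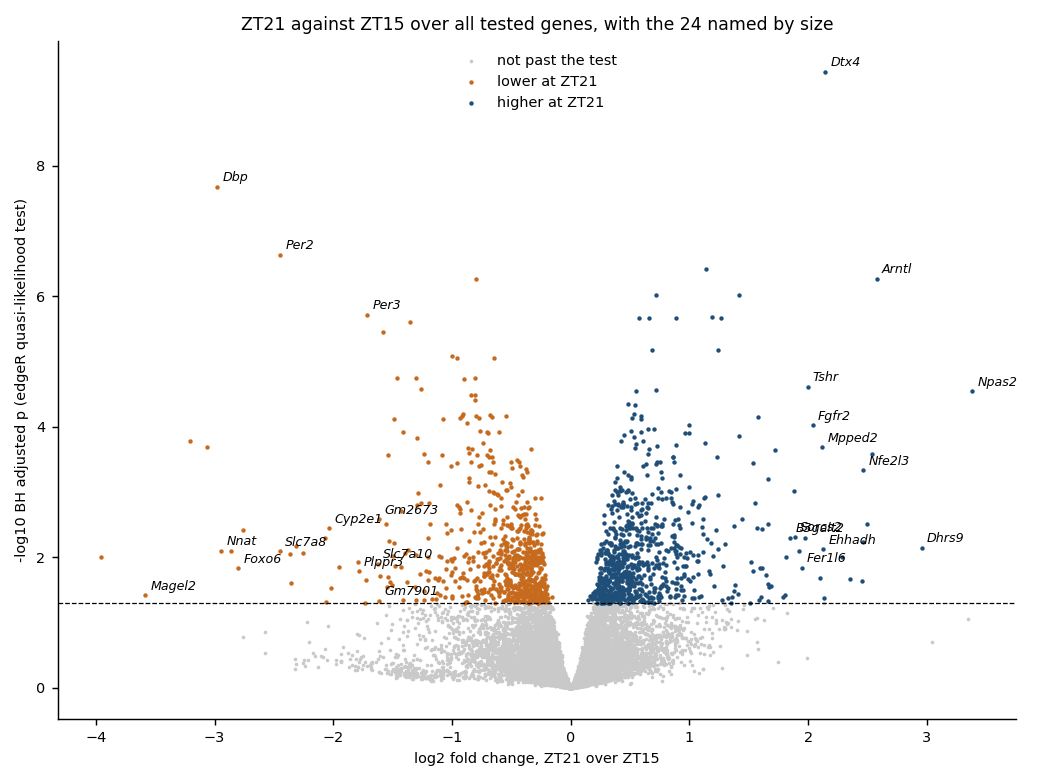
Log2 fold change of ZT21 over ZT15 (horizontal axis) against -log10 of the BH adjusted p of edgeR's quasi-likelihood test (vertical axis) for the 15505 tested genes, with the threshold of 0.05 as a dashed line. The 24 labelled genes are the 12 largest changes in each direction among genes past the test whose libraries did not overlap and whose mean reached 1 CPM, and Dtx4, Dbp and Per2 lie farthest above the line.

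The core clock turned over between early and late dark. All 3 genes of the activating arm rose and 4 of the 6 repressor genes fell, as did 2 of 3 REV-ERB and ROR receptors and 4 of the 6 D-box and DEC factors, against 9.69% of all tested genes in either direction. These are genes whose daily rhythm in these samples was known, so their direction is a description of the step and no independent finding. No repressor, receptor or D-box factor rose in that test, and with the muscle marker covariate Rora did (adjusted p = 0.0483).

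Arntl (chromosome 7, 113207465 to 113314126 in GRCm38), the partner without which the activating complex does not form, was at 3.21, 2.95, 2.91 and 4.34 CPM in the 4 ZT15 libraries and at 14.2, 16.8, 21.5 and 27.6 CPM in those of ZT21. Every ZT21 library lay above every ZT15 library (log2 fold change 2.58 ± 0.26 (SE), adjusted p = 5.4e-07). Most of that distance lay between ZT15 and ZT18 (15.3 ± 2.25 CPM at ZT18, SD, n = 4), a step that also crosses lanes. From ZT18 to ZT21 the change did not pass the test (0.39, adjusted p = 0.479). Npas2 (chromosome 1, 39193731 to 39363236), the alternative partner of ARNTL, was near the detection floor at ZT15 with 0.368, 0.118, 0.0583 and 0.176 CPM, which are 1 to 7 counts per library, and reached 1.98, 1.38, 2.45 and 2.13 CPM at ZT21 (log2 fold change 3.38 ± 0.46 (SE), adjusted p = 2.87e-05). Its rise came late, since ZT18 was at 0.401 ± 0.0666 CPM and ZT21 exceeded it within lane 4 (2.29, adjusted p = 0.00491). Clock (chromosome 5, 76209868 to 76304792) rose less, from between 47.5 and 55.1 CPM to between 73.9 and 95.4 CPM without overlap (log2 fold change 0.72 ± 0.10 (SE), adjusted p = 2.7e-05).

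Among the repressors, Per2 (chromosome 1, 91415982 to 91459324) was at 121, 91.8, 117 and 109 CPM at ZT15 and at 19.4, 21.9, 20.2 and 18.8 CPM at ZT21, with no overlap (log2 fold change -2.45 ± 0.23 (SE), adjusted p = 2.3e-07). It also fell within lane 4, from 52.2 ± 11.2 CPM (SD, n = 4) at ZT18 (-1.38, adjusted p = 0.00352). Per3 (chromosome 4, 151003652 to 151044665) followed the same course, from 195, 169, 169.5 and 146 CPM to 55.9, 61.2, 45.6 and 44.0 CPM (log2 fold change -1.72 ± 0.19 (SE), adjusted p = 1.92e-06), with a further decline after ZT18 (-0.86, adjusted p = 0.0157). Ciart (chromosome 3, 95878503 to 95882251), whose product CHRONO inhibits the ARNTL complex, was at 4.41, 7.39, 4.72 and 4.58 CPM and at 1.36, 1.89, 1.84 and 2.70 CPM, so that the groups did not overlap (log2 fold change -1.43 ± 0.29 (SE), adjusted p = 0.00196). Cry2 (chromosome 2, 92403646 to 92434043) fell from between 64.2 and 68.8 CPM to between 41.4 and 48.5 CPM (log2 fold change -0.55 ± 0.13 (SE), adjusted p = 0.00765). Per1 and Cry1 did not pass the test. Per1 ranged over 36.2 to 72.2 CPM at ZT15 and 27.0 to 44.0 CPM at ZT21 (-0.51, adjusted p = 0.308; -0.27, adjusted p = 0.647 without ZT15 replicate 2), and Cry1, known to peak later than the Per genes, over 24.9 to 30.9 CPM and 31.4 to 35.6 CPM (0.23, adjusted p = 0.343). Every ZT21 library of Cry1 lay above every ZT15 library. With the replicate number as a block in the 8 libraries alone Per1 had an adjusted p of 0.0176, while with the block in all 32 libraries it was 0.266.

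The REV-ERB genes, which lead the clock's second loop, were lower at ZT21. Nr1d2 (chromosome 14, 18204054 to 18239127) went from 90.7, 76.8, 69.2 and 54.7 CPM to 31.1, 28.4, 18.7 and 19.4 CPM (log2 fold change -1.58 ± 0.19 (SE), adjusted p = 3.46e-06) and declined within lane 4 too (-0.82, adjusted p = 0.0174). Nr1d1 (chromosome 11, 98767932 to 98775333) was at 35.4, 35.6, 31.9 and 30.2 CPM and 19.1, 18.7, 15.1 and 23.5 CPM (log2 fold change -0.80 ± 0.23 (SE), adjusted p = 0.0224), and its adjusted p exceeded 0.05 without ZT15 replicate 2 (0.0518) and without ZT21 replicates 1, 2 or 3 (0.0522, 0.0551 and 0.0798). At ZT18 Nr1d1 was at 19.7 ± 6.73 CPM (-0.05, adjusted p = 0.959 for ZT21 against ZT18). The opposing receptor Rora did not pass the test (0.23, adjusted p = 0.279), apart from the fit with the muscle marker covariate.

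Of the D-box factors, which carry the clock's rhythm to metabolic genes, Dbp (chromosome 7, 45705088 to 45710203) was at 52.5, 45.6, 49.7 and 39.7 CPM at ZT15 and at 6.79, 7.81, 4.40 and 4.77 CPM at ZT21, a 7.89-fold difference (log2 fold change -2.98 ± 0.25 (SE), adjusted p = 2.08e-08). At ZT18 it was at 10.8 ± 1.63 CPM (SD, n = 4). Tef (chromosome 15, 81802421 to 81826863) was at 327, 373, 407 and 367 CPM and 164, 163, 132 and 137 CPM (log2 fold change -1.31 ± 0.17 (SE), adjusted p = 1.77e-05), and Hlf (chromosome 11, 90336536 to 90390895) went from between 71.5 and 80.9 CPM to between 27.2 and 31.6 CPM (log2 fold change -1.35 ± 0.16 (SE), adjusted p = 2.43e-06). For both, as for Dbp, the libraries of the groups lay far apart and ZT18 was close to ZT21. Bhlhe41 (DEC2, chromosome 6, 145858243 to 145865558), a repressor at E-boxes, ranged over 24.8 to 52.6 CPM and 11.5 to 18.0 CPM (log2 fold change -1.37 ± 0.33 (SE), adjusted p = 0.00764). Its relative Bhlhe40 did not pass the test (-0.26, adjusted p = 0.813), and neither did Nfil3, which competes with the D-box factors (0.12, adjusted p = 0.795).

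The 250 bases before the RefSeq start of Ciart and Per3 are shown because they hold, in capitals, the letters to which the factors named above bind. E-boxes (CACGTG, the same on both strands) stood 116, 58 and 44 bases before the start of Ciart, and D-boxes (TTATGTAA on either strand) 205 and 158 bases before that of Per3. The motifs do not overlap one another. The sequences are from RefSeq on GRCm38, chr3:95882229-95882478 and chr4:151044666-151044915, both on the minus strand and written 5′ to 3′. The last bases of the Ciart window lie in the first exon of annotated transcripts that start farther upstream.
Ciart: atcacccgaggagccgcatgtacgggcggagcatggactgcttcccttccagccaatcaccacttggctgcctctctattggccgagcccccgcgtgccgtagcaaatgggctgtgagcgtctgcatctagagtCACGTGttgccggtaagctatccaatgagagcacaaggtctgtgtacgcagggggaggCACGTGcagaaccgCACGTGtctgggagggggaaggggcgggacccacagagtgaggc
Per3: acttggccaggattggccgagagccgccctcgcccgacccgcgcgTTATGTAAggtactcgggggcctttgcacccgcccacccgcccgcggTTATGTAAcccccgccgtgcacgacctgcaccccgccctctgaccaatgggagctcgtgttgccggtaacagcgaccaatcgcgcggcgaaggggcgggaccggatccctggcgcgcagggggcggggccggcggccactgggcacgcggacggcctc
The E-box letters stood in 6.02% of the 32851 windows of this length searched (27025 genes), and in 3 of the 6 windows found for 5 of the clock repressors and 3 of the 6 windows found for 5 of the D-box and DEC factors. These windows belonged to Ciart, Per1 and Cry1 and to Tef and Bhlhe41, and Per1 and Cry1 did not pass the test. The D-box letters stood in 0.819% of all windows. Among all genes that differed, 8.61% of 732 windows of lower genes and 7.38% of 732 windows of higher genes held an E-box, against 8.02% of the 13940 windows of tested genes. A D-box stood in 8 windows of lower genes (1.09%) and 1 of higher genes (0.137%), against 65 of tested genes (0.466%).

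**Figure D2:**
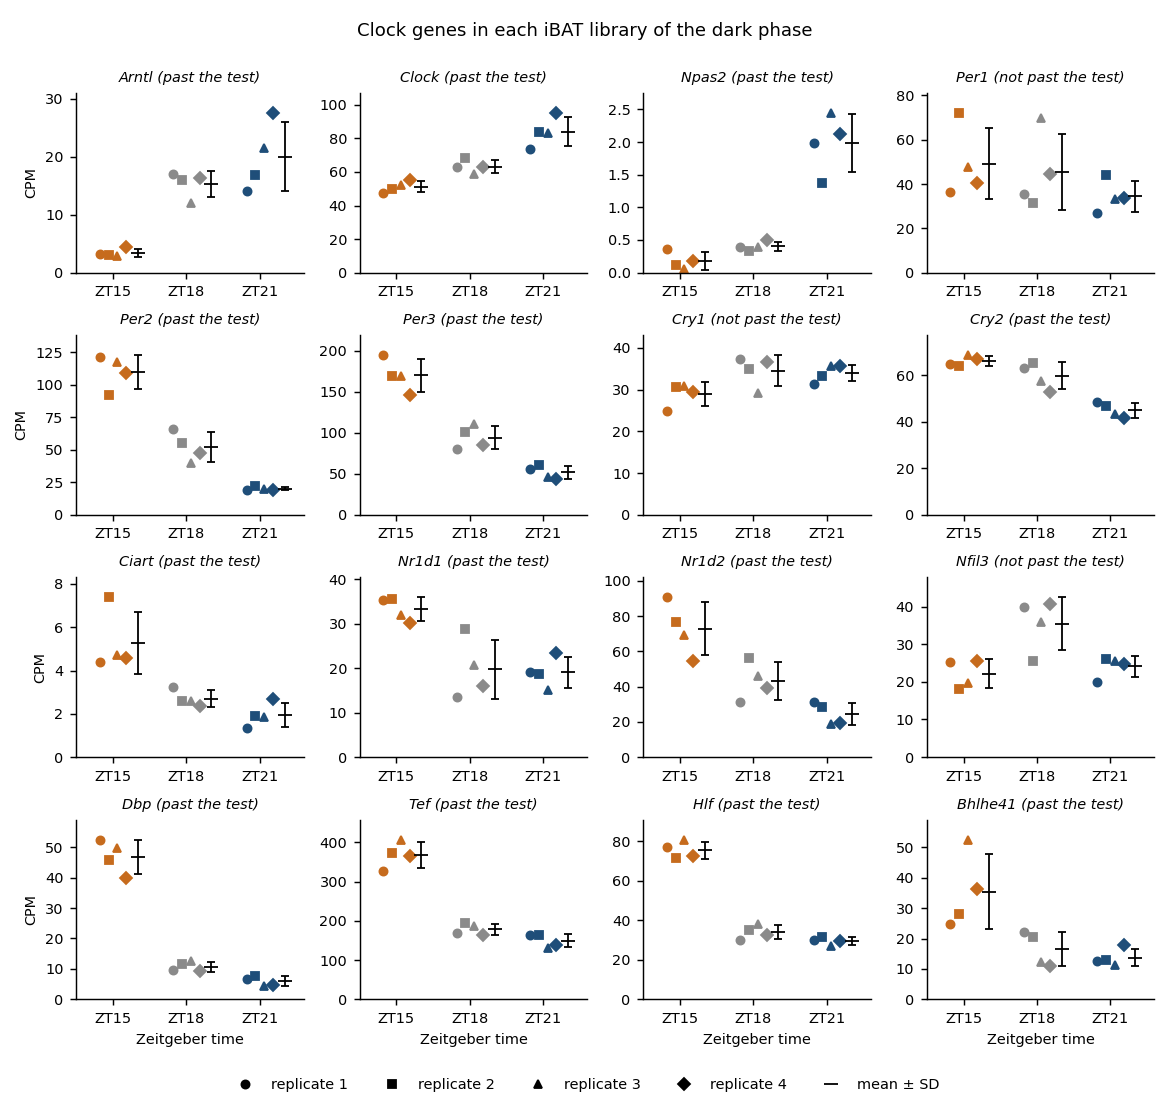
Level of 16 clock genes in CPM (vertical axes, each starting at 0) in the 4 libraries of ZT15, ZT18 and ZT21, with the symbol giving the replicate number and the bar the mean ± SD over 4 mice. Arntl, Clock and Npas2 are highest at ZT21, while Per2, Per3, Cry2, Ciart, Nr1d1, Nr1d2, Dbp, Tef, Hlf and Bhlhe41 are lower there than at ZT15, and Per1, Cry1 and Nfil3 did not pass the test.

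Besides clock genes, the largest rises belonged to genes of varied function. Dtx4 (chromosome 19, 12466338 to 12501454), a ubiquitin ligase of the Deltex family, had the smallest adjusted p of all tested genes. It was at 9.14, 7.45, 5.13 and 7.16 CPM at ZT15 and 32.7, 30.0, 33.1 and 31.8 CPM at ZT21, with little spread in either group (log2 fold change 2.14 ± 0.15 (SE), adjusted p = 3.58e-10), and rose within lane 4 as well (0.90, adjusted p = 0.00189). Ehhadh (chromosome 16, 21761287 to 21787807), an enzyme of peroxisomal fatty acid oxidation, was at 18.9, 29.0, 23.8 and 23.4 CPM and 134, 81.9, 99.8 and 101 CPM (log2 fold change 2.13 ± 0.50 (SE), adjusted p = 0.00748), and none of its libraries overlapped. Tshr (chromosome 12, 91384563 to 91549808), the receptor for thyroid-stimulating hormone, was at 3.42, 2.66, 2.45 and 3.40 CPM and 8.15, 10.7, 13.5 and 15.3 CPM (log2 fold change 1.99 ± 0.27 (SE), adjusted p = 2.42e-05).

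Fgfr2 (chromosome 7, 130162451 to 133123350), a receptor for fibroblast growth factors, went from between 2.33 and 3.52 CPM to between 7.46 and 12.8 CPM (log2 fold change 2.04 ± 0.30 (SE), adjusted p = 9.47e-05). Dhrs9 (chromosome 2, 69380445 to 69404533), a dehydrogenase of retinol and steroids, varied between the ZT15 mice (0.578, 2.42, 0.758 and 2.23 CPM) and was even at ZT21 (11.6, 11.9, 10.3 and 12.4 CPM, log2 fold change 2.95 ± 0.70 (SE), adjusted p = 0.00719). Nfe2l3 (chromosome 6, 51432670 to 51458768), a transcription factor related to NRF2, was low throughout, at 0.293 to 1.47 CPM and 2.07 to 5.86 CPM (log2 fold change 2.46 ± 0.43 (SE), adjusted p = 0.000461). Sorcs2 (chromosome 5, 36017180 to 36398139), a sorting receptor, ranged over 20.8 to 58.1 CPM and 101 to 159 CPM (log2 fold change 1.89 ± 0.42 (SE), adjusted p = 0.00483), and B3galt2 (chromosome 1, 143640664 to 143654614), a galactosyltransferase, over 8.51 to 23.5 CPM and 46.3 to 72.6 CPM (log2 fold change 1.85 ± 0.41 (SE), adjusted p = 0.00501). At ZT18 their means were 104 and 55.2 CPM. The other rises were those of Mpped2, a phosphodiesterase (0.236 to 0.578 CPM against 1.06 to 2.53 CPM, 2.11 ± 0.34, adjusted p = 0.000205), and Fer1l6, of the ferlin family (1.68 to 11.3 CPM against 22.3 to 35.7 CPM, 1.94 ± 0.51, adjusted p = 0.0144). All 12 of these rises, Arntl and Npas2 included, held in each fit that left out 1 library of ZT15 or ZT21. Without ZT15 replicate 1 the changes of Npas2 (4.00, adjusted p = 2.62e-05) and Nfe2l3 (3.23, adjusted p = 4.45e-05) were larger. Within lane 4, Dtx4, Npas2 and Nfe2l3 rose among the 12, whereas the steps of Ehhadh (1.12, adjusted p = 0.261), Tshr (0.46, adjusted p = 0.394) and the others did not pass.

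Among the 12 largest declines, several rested on ZT15 replicate 1. Magel2 (chromosome 7, 62377010 to 62381640), an imprinted gene, was at 9.51, 1.12, 0.583 and 0.587 CPM at ZT15, where replicate 1 held most of the signal, and at 0.340, 0.459, 0.0557 and 0.115 CPM at ZT21 (log2 fold change -3.58 ± 1.11 (SE), adjusted p = 0.0382). Without that library the log2 fold change was -1.63, adjusted p = 0.406, the call was also lost without any 1 of the ZT21 libraries, and with the muscle marker covariate the adjusted p was 0.0655. Nnat (chromosome 2, 157560078 to 157562522), also imprinted and a marker of white fat, was at 90.2, 21.0, 18.2 and 13.7 CPM and 7.81, 6.26, 2.28 and 2.24 CPM (log2 fold change -2.95 ± 0.70 (SE), adjusted p = 0.00797), and without ZT15 replicate 1 at -1.92, adjusted p = 0.0624. The other ZT15 libraries of Nnat still lay above all ZT21 libraries.

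Foxo6, a forkhead factor (chromosome 4, 120267079 to 120287349; 3.63, 1.12, 2.10 and 0.821 CPM against 0.396, 0.402, 0.223 and 0.0575 CPM, -2.80 ± 0.74, adjusted p = 0.0149), had an adjusted p of 0.061 without ZT15 replicate 1 and of 0.0563 without ZT21 replicate 4, where it had 1 count. Plppr3, related to lipid phosphatases (3.78, 1.30, 0.932 and 1.06 CPM against 0.396, 0.746, 0.557 and 0.345 CPM, -1.79 ± 0.48, adjusted p = 0.0164), was at -1.09, adjusted p = 0.14 without ZT15 replicate 1 and had an adjusted p of 0.0538 without ZT21 replicate 1, 0.0576 without ZT21 replicate 4 and 0.0539 with the replicate block in the 8 libraries alone. Gm7901, a processed pseudogene whose reads may belong to its parent gene (-1.61 ± 0.52, adjusted p = 0.0462), was called in 3 of the 8 fits that left out 1 library, was at -0.94, adjusted p = 0.273 without ZT15 replicate 1, and had an adjusted p of 0.0546 with the replicate block. The other declines held when any 1 library was left out. The amino acid transporters Slc7a8 (chromosome 14, 54722209 to 54781946) and Slc7a10 (chromosome 7, 35186385 to 35201114) were both among them: Slc7a8 was at 37.8, 11.4, 8.04 and 17.5 CPM and 4.64, 2.58, 3.73 and 2.70 CPM (log2 fold change -2.45 ± 0.59 (SE), adjusted p = 0.00804; -1.85, adjusted p = 0.0426 without ZT15 replicate 1), and Slc7a10 at 10.7, 13.9, 6.24 and 10.4 CPM and 3.91, 3.27, 3.95 and 2.24 CPM (log2 fold change -1.63 ± 0.42 (SE), adjusted p = 0.0126). Cyp2e1 (chromosome 7, 140763739 to 140774987), a cytochrome P450 that oxidises small molecules such as ethanol and acetone, went from 383, 275, 119 and 162 CPM to 71.8, 54.5, 53.5 and 49.8 CPM (log2 fold change -2.03 ± 0.44 (SE), adjusted p = 0.00361). Gm2673, a processed pseudogene on chromosome 5 whose reads may likewise belong to its parent gene, went from between 1.10 and 2.05 CPM to between 0.390 and 0.690 CPM (-1.61 ± 0.33, adjusted p = 0.00261). Within lane 4, Gm2673, Per2 and Per3 fell among the 12, and the other 9 did not pass.

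Part of the heat-shock genes were lower late in the dark phase. Of 23 heat-shock proteins and chaperones, all tested, 9 fell and none rose (39.1% called, against 9.69% of all tested genes), and their median log2 fold change was -0.40 against -0.01 over all genes. The other 14 did not pass, and 7 of the 23 had a log2 fold change above 0. That median depended on single libraries. It was -0.16 without ZT15 replicate 1, -0.54 without ZT15 replicate 2, and -0.16 in the 4 libraries lowest in muscle markers. The 9 were the HSP70 genes Hspa1a, Hspa1b and Hspa8, the HSP110 gene Hsph1, the J-domain co-chaperones Dnaja1, Dnajb1 and Dnajb4, the co-chaperone Bag3 and Chordc1. Members past no threshold included Hsp90aa1, an HSP90 gene (0.15, adjusted p = 0.774), and Hsf1, the factor that switches heat-shock genes on (-0.12, adjusted p = 0.357).

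Hspa1a (chromosome 17, 34969190 to 34972156) was at 11.4, 1.06, 13.2 and 13.5 CPM at ZT15 and 1.02, 1.89, 0.835 and 0.920 CPM at ZT21 (log2 fold change -3.06 ± 0.49 (SE), adjusted p = 0.000204). Hspa1b (chromosome 17, 34956436 to 34959238) was at 14.5, 1.48, 15.4 and 18.1 CPM and 1.13, 1.61, 1.11 and 1.49 CPM (log2 fold change -3.21 ± 0.50 (SE), adjusted p = 0.000166). In ZT15 replicate 2 both were within the range of ZT21, so the groups overlapped and neither entered the genes named by size. Without that library the changes were -3.44, adjusted p = 9.78e-07 for Hspa1a and -3.58, adjusted p = 1.28e-06 for Hspa1b. The 2 genes are near-identical copies, and their reads could be split between them in counting.

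Hsph1 was at 151, 63.1, 145 and 149 CPM and 36.6, 64.6, 38.8 and 32.3 CPM, with ZT15 replicate 2 below the highest ZT21 library (log2 fold change -1.56 ± 0.33 (SE), adjusted p = 0.00309). Dnaja1 (122, 76.5, 126 and 138 CPM against 43.7, 57.5, 41.8 and 49.5 CPM, -1.27 ± 0.17, adjusted p = 2.67e-05) did not overlap between groups even with that library. Dnajb4 had the smallest adjusted p of the list and went from 80.3, 62.3, 74.0 and 73.2 CPM to 39.1, 42.5, 40.2 and 44.6 CPM (log2 fold change -0.80 ± 0.08 (SE), adjusted p = 5.4e-07). Bag3 went from between 42.3 and 64.7 CPM to between 26.3 and 29.8 CPM (log2 fold change -1.002 ± 0.12 (SE), adjusted p = 8.22e-06), Dnajb1 from between 26.9 and 56.6 CPM to between 19.3 and 26.5 CPM (log2 fold change -1.08 ± 0.18 (SE), adjusted p = 0.00027), and Chordc1 from between 53.2 and 76.3 CPM to between 35.4 and 40.8 CPM (log2 fold change -0.87 ± 0.17 (SE), adjusted p = 0.00143).

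Hspa8, the constitutive HSP70, was highest at ZT18 (803 ± 145 CPM, SD, n = 4) and fell from there to 391 ± 70.7 CPM at ZT21 within lane 4 (-1.04, adjusted p = 0.005). Against ZT15 its decline was smaller (log2 fold change -0.69 ± 0.18 (SE), adjusted p = 0.017), and the call was lost without ZT15 replicate 3 or 4 (0.0564 and 0.0505) and without ZT21 replicate 1 or 3 (0.0626 and 0.056). Within lane 4, where 2.06% of all tested genes differed, 6 of the 23 members did so, all of them lower at ZT21, among them Dnaja1 (-0.92, adjusted p = 0.00503), Dnajb4 (-0.43, adjusted p = 0.00587) and Chordc1 (-0.77, adjusted p = 0.016). Without ZT15 replicate 2, 10 members fell, the tenth being Ahsa2, and without ZT15 replicate 1 the same 9 did. In the 4 libraries lowest in muscle markers, which include ZT15 replicate 2, Bag3, Dnaja1 and Dnajb4 passed. Of the cold-inducible RNA-binding proteins, Cirbp moved opposite to the heat-shock genes, from 17.8, 14.8, 11.1 and 12.0 CPM to 25.9, 21.1, 24.2 and 20.5 CPM (log2 fold change 0.72 ± 0.18 (SE), adjusted p = 0.00992), while Rbm3 did not pass (-0.18, adjusted p = 0.393). None of the 20 ER chaperones and unfolded protein response genes passed in edgeR across the 32 libraries (median -0.10), and 5 had an unadjusted p under 0.05. Hsp90b1 passed with DESeq2 and without ZT21 replicate 3, and Hspa5 with library size alone.

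The bases before the RefSeq starts of Hspa1a and Hspa1b are shown because both hold the core of a heat-shock element, GAANNTTC (the same when read on either strand), in capitals, 104 bases before the start. They are chr17:34972157-34972406 and chr17:34959239-34959488 on GRCm38, both on the minus strand.
Hspa1a: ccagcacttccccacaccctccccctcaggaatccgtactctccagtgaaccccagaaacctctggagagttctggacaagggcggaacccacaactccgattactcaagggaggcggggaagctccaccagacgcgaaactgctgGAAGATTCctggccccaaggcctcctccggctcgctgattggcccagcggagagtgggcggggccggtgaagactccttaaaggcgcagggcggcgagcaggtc
Hspa1b: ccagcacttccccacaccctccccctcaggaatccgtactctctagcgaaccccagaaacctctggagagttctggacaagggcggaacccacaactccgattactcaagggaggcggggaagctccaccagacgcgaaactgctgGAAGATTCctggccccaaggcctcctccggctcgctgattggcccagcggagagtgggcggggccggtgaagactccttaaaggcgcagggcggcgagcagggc
The windows were the same at 247 of 250 bases (98.8%). Those letters stood in 6.69% of all windows and in 6 of the 24 windows found for 18 of the heat-shock genes. These belonged to Hspa1a, Hspa1b and Dnaja1, which fell, and to Hspd1, Hspe1 and Hspb1, which did not pass. The windows of Hspd1 and Hspe1 overlap, and their letters are the same bases read on opposite strands. Neither they nor the near-identical windows of Hspa1a and Hspa1b are independent counts. Over all genes they stood in 4.37% of the windows of lower genes and 2.73% of those of higher genes, against 4.98% of those of tested genes.

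**Figure D3:**
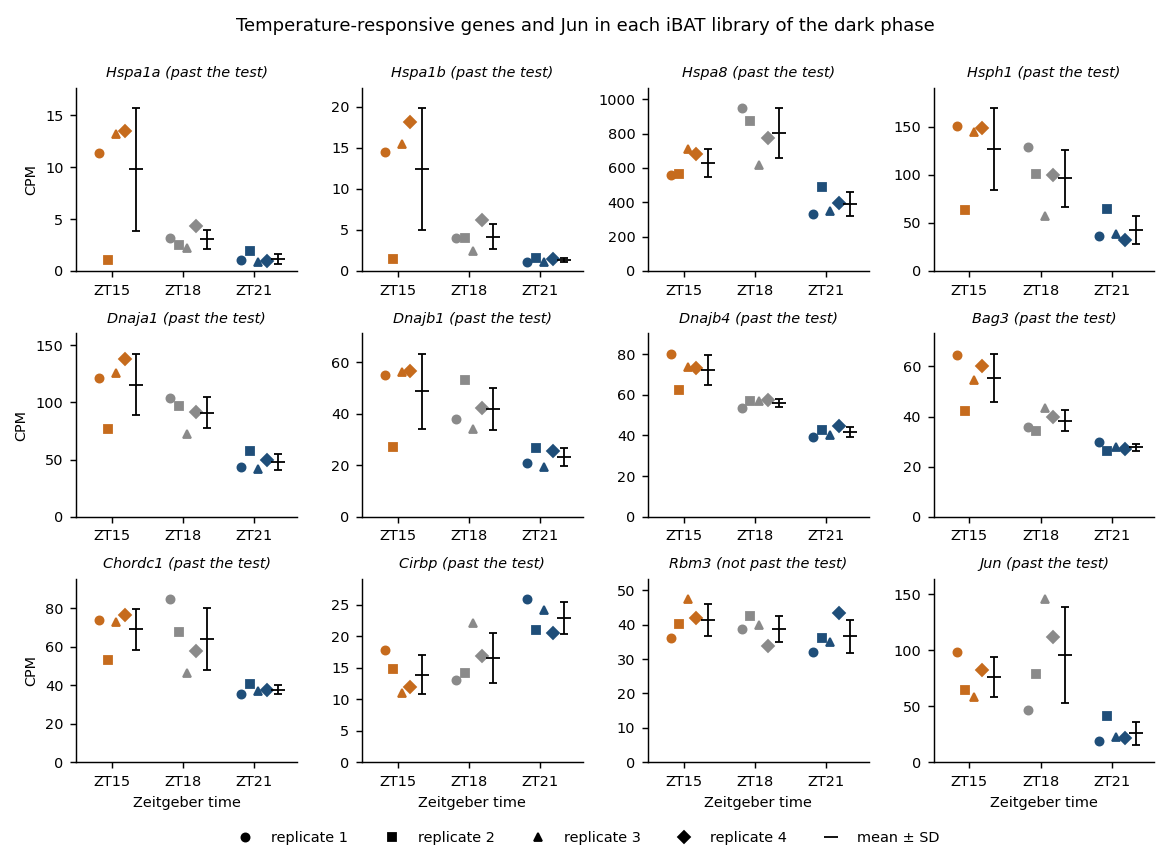
Level in CPM (vertical axes, each starting at 0) of the 9 heat-shock genes past the test, of Cirbp, Rbm3 and Jun in the libraries of ZT15, ZT18 and ZT21, with the replicate number as symbol and the mean ± SD over 4 mice. ZT15 replicate 2 (square) lies at 1.06 CPM for Hspa1a, within the range of ZT21, whereas for Dnajb4 and Bag3 all 4 ZT15 libraries lie above all 4 ZT21 libraries.

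Several genes of triglyceride synthesis and storage were lower at ZT21. In the triglyceride synthesis and lipid droplet list 5 of 19 genes fell and none rose (26.3% called, against 9.69% of all tested genes). In the LPL pathway 1 of 15 rose and 1 fell (13.3%, near that background). The study had itself singled out Dgat2, Cidec, Gpat4, Plin4, Lpl and Angptl4 on these samples, so those counts are not independent evidence of a direction. Dgat2, which makes the last bond of triglycerides, was at 2786, 2978, 2788 and 3255 CPM at ZT15 and 1703, 1642, 1495 and 1444 CPM at ZT21 (log2 fold change -0.91 ± 0.13 (SE), adjusted p = 6.29e-05). Cidec, a protein of the droplet surface that fuses droplets, was at 805, 1088, 1051 and 1001 CPM and 550.1, 569, 438 and 514 CPM (log2 fold change -0.93 ± 0.14 (SE), adjusted p = 7.3e-05). Neither gene overlapped between groups, and both were lower at ZT18 (1843 and 698 CPM) than at ZT15. Their steps within lane 4 did not pass (-0.23, adjusted p = 0.42, and -0.43, adjusted p = 0.0913), nor did that of any other gene of either list, where 3 genes of the triglyceride list and 2 of the LPL list had an unadjusted p under 0.05 and DESeq2 called 1 and 0.

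The acyltransferases Gpat3 (-0.79 ± 0.22, adjusted p = 0.0205) and Gpat4 (-0.53 ± 0.17, adjusted p = 0.0411) and the droplet coat gene Plin4 (-0.54 ± 0.15, adjusted p = 0.024) fell less, and their calls depended on single libraries. Gpat3 lost its call without ZT15 replicate 1 or 3 or ZT21 replicate 4 (0.0608, 0.0679 and 0.0889), Gpat4 in 6 of the 8 fits that left out 1 library (highest adjusted p 0.122, without ZT21 replicate 2) and with the replicate block (0.0544), and Plin4 in 5 of the 8 fits that left out 1 library (highest adjusted p 0.107, without ZT21 replicate 4). Lpl was at 4444, 5135, 4054 and 4311 CPM and 2959, 2939, 2629 and 2859 CPM (log2 fold change -0.66 ± 0.12 (SE), adjusted p = 0.000987; -0.23, adjusted p = 0.38 within lane 4), with no overlap. Its inhibitor Angptl4 went the other way, with 209, 87.6, 54.8 and 63.8 CPM at ZT15 and 429.6, 313, 354 and 201 CPM at ZT21 (log2 fold change 1.64 ± 0.45 (SE), adjusted p = 0.0187; 0.39, adjusted p = 0.75 within lane 4). ZT15 replicate 1, at 209 CPM, lay above the lowest ZT21 library. Without it the change of Angptl4 was 2.24, adjusted p = 0.00273, whereas without ZT15 replicate 2, 3 or 4 or ZT21 replicate 1 the adjusted p was 0.0537, 0.0716, 0.0712 and 0.0582. Angptl8, another regulator of LPL, did not pass (19.2 to 156 CPM against 30.6 to 69.0 CPM, -0.84, adjusted p = 0.255).

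Among 10 tested fasting-responsive genes 2 rose, Angptl4 and Pdk4, and none fell (20.0% called, against 9.69% of all tested genes). Library size alone also called Pnpla2 lower, and the replicate block in the 8 libraries alone also called Irs2 higher. Pdk4, a kinase that stops pyruvate from entering the citric acid cycle, was at 623, 473, 400.5 and 334 CPM and 1788, 1314, 1198 and 1298 CPM, with the groups far apart (log2 fold change 1.61 ± 0.35 (SE), adjusted p = 0.00371; 0.60, adjusted p = 0.432 within lane 4). Pck1, the enzyme of glyceroneogenesis in fat, ranged over 1304 to 2734 CPM and 2006 to 2884 CPM and did not pass (0.50, adjusted p = 0.363). Of 20 genes of fatty acid oxidation Ehhadh passed (5.0%), and the log2 fold changes of the 19 others lay between -0.25 and 0.18. Of 13 lipolysis genes, the glycerol channel Aqp7 rose (0.44 ± 0.11, adjusted p = 0.012) and the carboxylesterase Ces1f fell (-0.52 ± 0.14, adjusted p = 0.0144), 15.4% called. With library size alone Adora1, Ces1f and Pnpla2 passed, all lower, and with the replicate block in the 8 libraries alone 3 rose and 2 fell. Aqp7 had adjusted p values of 0.0548 without ZT15 replicate 2, 0.0507 without ZT21 replicate 1 and 0.073 with library size alone, and Ces1f 0.0782 without ZT15 replicate 2 and 0.0538 without ZT15 replicate 4.

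Of 17 genes of de novo lipogenesis 12 had a log2 fold change above 0, but no rise passed in edgeR's test across the 32 libraries. DESeq2 called Acaca higher, the fit of the 8 libraries alone called Me1, and that fit with the replicate block called Acaca, Acss2, Me1, Scd2 and Slc25a1. Neither fit of the 8 libraries called Srebf1 (0.132, and 0.0595 with the block). Across the 32 libraries their median log2 fold change was 0.72, 8 of them did not overlap between groups (17.0% of all tested genes did not), and 1 gene (5.88%) passed, Srebf1, in the downward direction, against 9.69% of all tested genes. Fasn, fatty acid synthase, was at 2931, 19408, 17314 and 20610 CPM at ZT15 and 24417, 31999, 22010 and 32884 CPM at ZT21 (log2 fold change 0.89 ± 0.48 (SE), adjusted p = 0.264). The lowest value was that of ZT15 replicate 1, and the remaining ZT15 libraries still lay below all ZT21 libraries. Acly, which supplies acetyl-CoA (631, 3986, 3039 and 4142 CPM against 5454, 6797, 4777 and 7677 CPM, 1.07 ± 0.51, adjusted p = 0.195), and Scd1, the stearoyl-CoA desaturase (14810 to 45033 CPM against 53400 to 68194 CPM, 0.73 ± 0.32, adjusted p = 0.159), had the same form.

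Thrsp, a protein that promotes lipogenesis, did not pass either (1238 to 3575 CPM against 2856 to 4396 CPM, 0.35 ± 0.29, adjusted p = 0.489). Without ZT15 replicate 1 the changes were 0.54, adjusted p = 0.512 for Fasn, 0.73, adjusted p = 0.395 for Acly, 0.47, adjusted p = 0.381 for Scd1 and 0.10, adjusted p = 0.876 for Thrsp, and the median of the list was 0.46. Srebf1, the sterol-regulatory factor that drives these genes, was at 357, 818, 944 and 985 CPM and 367, 551, 441 and 478 CPM (log2 fold change -0.76 ± 0.23 (SE), adjusted p = 0.0321). Replicate 1 of ZT15 lay below all ZT21 libraries and the rest of ZT15 above them, and the call was lost in 6 of the 8 fits that left out 1 library (highest adjusted p 0.119, without ZT15 replicate 4), though not without that library (-0.99, adjusted p = 0.00124).

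**Figure D4:**
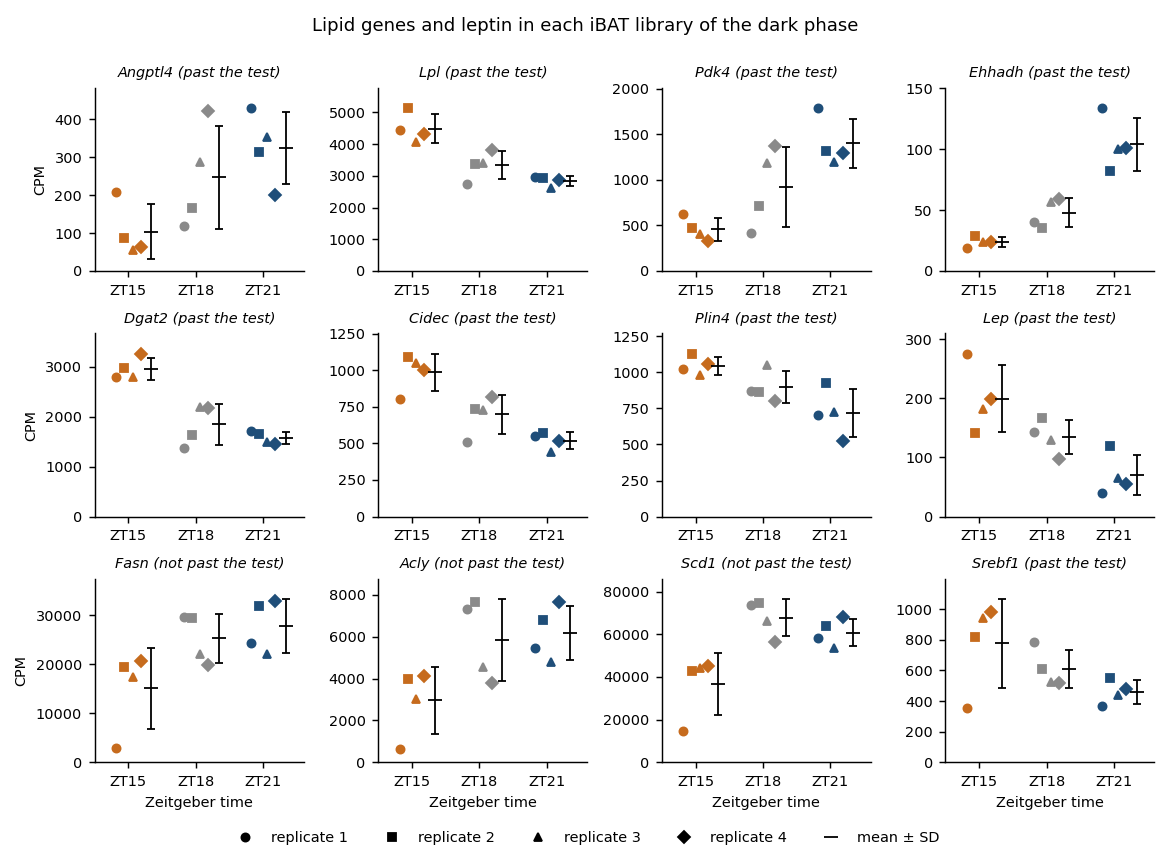
Level in CPM (vertical axes, each starting at 0) of 11 lipid genes and leptin (Lep) in the libraries of ZT15, ZT18 and ZT21, with the replicate number as symbol and the mean ± SD over 4 mice. Dgat2, Cidec and Lpl are lower and Pdk4 and Ehhadh higher at ZT21 without overlap, and ZT15 replicate 1 (circle) is lowest for Fasn at 2931 CPM and highest of its group for Angptl4 at 209 CPM.

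No gene of the thermogenic list passed in edgeR across the 32 libraries among 17 tested, and none of 33 nuclear subunits of the respiratory chain did. Ucp1 was at 1134, 1994, 1911 and 2033 CPM and 1652, 2309, 1145 and 1921 CPM (log2 fold change -0.01 ± 0.28 (SE), adjusted p = 0.991), so the means differed by less than the spread between mice. Dio2, which activates thyroid hormone, was at 12.2, 30.6, 10.5 and 13.3 CPM and 20.2, 67.8, 9.74 and 21.8 CPM (log2 fold change 0.85 ± 0.68 (SE), adjusted p = 0.474), with replicate 2 highest at both times. The change of Dio2 was 0.051 without ZT21 replicate 2 and 1.31 without ZT15 replicate 2. Ppargc1a, the coactivator of mitochondrial genes, was at 33.1 to 42.6 CPM and 26.8 to 40.1 CPM (-0.22 ± 0.27, adjusted p = 0.658). Gpr3, Bmp8b and Fgf21 were too low to be tested. By unadjusted p, 5 thermogenic genes and none of the respiratory chain were under 0.05. DESeq2 called none of either list, while Esrra, a nuclear receptor that drives mitochondrial genes, passed without ZT15 replicate 1 or with library size alone, downward in both. Ckb, the creatine kinase, passed downward in the 8 libraries alone with and without the replicate block, and Cox6a2, a subunit of complex IV, with it. Mitochondrially encoded genes took 23.9% ± 1.88 (SD, n = 4) of the counts at ZT15 and 22.5% ± 1.22 at ZT21 (exact permutation test, two-sided, p = 0.286, smallest possible p 0.0286). Of the 13 mitochondrial messenger RNAs 2 rose (15.4%, against 9.69% of all tested genes), and 5 had a log2 fold change below 0. One was mt-Nd6, from 71.4, 82.3, 54.4 and 69.0 CPM to 108, 123, 146 and 167 CPM (log2 fold change 0.97 ± 0.24 (SE), adjusted p = 0.00869), and the other mt-Nd1 (0.25 ± 0.08, adjusted p = 0.0421). The call of mt-Nd1 was lost in 6 of the 8 fits that left out 1 library (highest adjusted p 0.119, without ZT21 replicate 1) and with the replicate block (0.057, and 0.224 in the 8 libraries alone). Both encode subunits of complex I. Within lane 4, mt-Nd1, mt-Nd2 and mt-Nd5 differed between ZT18 and ZT21. The 13 messenger RNAs summed to 220800 to 239500 CPM at ZT15, 174400 to 195800 CPM at ZT18 and 211900 to 239100 CPM at ZT21.

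Glucocorticoid targets did not move together. Of 15 tested, 4 fell and 1 rose (33.3% called, against 9.69% of all tested genes) with a median log2 fold change of -0.07. With 1 library left out, where 16 were tested, the median lay between -0.20 (without ZT15 replicate 1) and -0.09 (without ZT21 replicate 4). Fkbp5, a co-chaperone of the glucocorticoid receptor, was at 63.8, 47.2, 40.3 and 30.1 CPM and 21.2, 17.3, 14.8 and 11.3 CPM (log2 fold change -1.49 ± 0.34 (SE), adjusted p = 0.00596), and its ZT18 mean of 10.8 CPM was below that of ZT21. Tsc22d3 (GILZ) went from between 75.5 and 96.4 CPM to between 54.7 and 60.3 CPM (log2 fold change -0.62 ± 0.17 (SE), adjusted p = 0.019; 0.0509 without ZT15 replicate 2, 0.0549 without ZT21 replicate 4). Metallothionein Mt1 was at 68.6, 81.5, 83.3 and 82.0 CPM and 46.8, 47.2, 42.3 and 48.5 CPM (log2 fold change -0.77 ± 0.16 (SE), adjusted p = 0.00238). Glul, glutamine synthetase, fell (-0.47 ± 0.14, adjusted p = 0.0288), a call lost in 5 of the 8 fits that left out 1 library (highest adjusted p 0.0986, without ZT21 replicate 3).

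Cdkn1a, the cell cycle inhibitor p21, rose from 38.6, 44.7, 31.8 and 24.9 CPM to 86.4, 105, 101 and 125 CPM (log2 fold change 1.57 ± 0.23 (SE), adjusted p = 7.17e-05). At ZT18 it was still at 36.8 ± 8.36 CPM, so the rise fell within lane 4 (1.504, adjusted p = 0.00164). Zbtb16, a factor strongly induced by glucocorticoids, was high in replicates 1 and 3 and low in replicates 2 and 4 at ZT15 (51.6, 11.3, 48.5 and 12.0 CPM), and likewise higher in replicates 1 and 3 at ZT21 (91.6, 54.6, 84.3 and 39.0 CPM). It did not pass here (1.13, adjusted p = 0.125), passed with the replicate block in the 8 libraries alone (0.0157) but not with the block in all 32 (0.0771), and passed within lane 4 (2.28, adjusted p = 0.014). The skeletal muscle marker sum was also higher in replicates 1 and 3 of both times, and its part in the Zbtb16 values was not tested. Sgk1 did not pass (-0.24, adjusted p = 0.584).

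In the remaining lists the share called is to be read against the 9.69% of all tested genes. Of 16 adipokines and secreted factors 4 fell and none rose (25.0%), while the replicate block in the 8 libraries alone called 1 higher and 6 lower. The 4 were leptin (Lep, 275, 141, 181 and 199.6 CPM against 40.2, 119, 65.9 and 55.4 CPM, -1.51 ± 0.44, adjusted p = 0.0265), Nrg4, a secreted factor of brown fat (153, 204, 194 and 199.6 CPM against 132, 137, 137 and 125 CPM, -0.50 ± 0.09, adjusted p = 0.000845), the vascular growth factor Vegfa (-0.36 ± 0.11, adjusted p = 0.0335) and Igfbp5 (-0.72 ± 0.18, adjusted p = 0.0126). Nrg4 held in every fit that left out 1 library. The steps of Lep (-0.94, adjusted p = 0.298) and Nrg4 (-0.14, adjusted p = 0.517) within lane 4 did not pass. Lep lost its call in 5 of the 8 fits that left out 1 library (highest adjusted p 0.0937, without ZT21 replicate 1), Vegfa in 6 of the 8 fits that left out 1 library (highest adjusted p 0.0963, without ZT21 replicate 3), and Igfbp5 without ZT15 replicate 1 (-0.47, adjusted p = 0.0812) or ZT21 replicate 4 (0.0586). Of 20 collagen and matrix genes 4 rose (20.0%), while 14 had a log2 fold change below 0 and the median was -0.09. In the 4 libraries lowest in muscle markers Lox passed upward and Lum downward. The crosslinking enzyme Lox went from 25.0, 19.0, 15.0 and 15.7 CPM to 38.8, 46.6, 30.6 and 33.3 CPM (log2 fold change 0.998 ± 0.15 (SE), adjusted p = 9.47e-05; 0.53, adjusted p = 0.0559 within lane 4). The basement membrane chains Col4a1 (0.33 ± 0.08, adjusted p = 0.0109) and Col4a2 (0.35 ± 0.09, adjusted p = 0.0103) lost their calls with library size alone (0.0866 and 0.0757), as did Col5a3 (0.45 ± 0.14, adjusted p = 0.0383; 0.130 with library size alone, 0.053 with the replicate block, 0.0611 with it in the 8 libraries alone, and lost in 6 of the 8 fits that left out 1 library (highest adjusted p 0.136, without ZT15 replicate 3)).

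In the list of NRF2 and antioxidant defence 2 of 19 rose and 2 fell (21.1%). Nfe2l2, which encodes NRF2, was at 100.2, 133, 160.3 and 141 CPM and 65.5, 72.9, 63.1 and 82.0 CPM (log2 fold change -0.92 ± 0.13 (SE), adjusted p = 6.71e-05), and heme oxygenase Hmox1 fell too (-0.72 ± 0.17, adjusted p = 0.00824). Glutathione reductase Gsr rose (0.67 ± 0.15, adjusted p = 0.00644), and sulfiredoxin Srxn1 did (0.48 ± 0.14, adjusted p = 0.0248), with its call lost in 4 of the 8 fits that left out 1 library (highest adjusted p 0.0872, without ZT21 replicate 2). Of 22 immediate early genes 2 fell (9.09%, against 9.69% of all tested genes). ZT21 replicate 2 stood apart in this list, with a summed level of 897 CPM against 263 to 284 CPM in the other ZT21 libraries. The median log2 fold change of the list was -0.16, and -0.70 without that library, where Jun and Klf6 still passed. Jun was at 98.4, 64.5, 58.6 and 82.4 CPM, 95.7 ± 42.7 CPM (SD, n = 4) and 18.8, 41.3, 22.7 and 21.6 CPM at ZT15, ZT18 and ZT21 (log2 fold change -1.54 ± 0.43 (SE), adjusted p = 0.0197), a call lost in 3 of the 8 fits that left out 1 library (highest adjusted p 0.068, without ZT21 replicate 1), and Klf6 went from between 67.2 and 81.7 CPM to between 33.4 and 46.2 CPM (log2 fold change -0.86 ± 0.15 (SE), adjusted p = 0.000607). Both also fell within lane 4 (-1.87, adjusted p = 0.0194, and -0.78, adjusted p = 0.00768).

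In the integrated stress response list 2 of 17 rose and 3 fell (29.4%). The factor Atf5 rose (0.72 ± 0.18, adjusted p = 0.0112) and held in every fit that left out 1 library. Trib3 (0.70 ± 0.21, adjusted p = 0.0328), Nupr1 (-0.50 ± 0.13, adjusted p = 0.0135) and the serine synthesis genes Psat1 (-0.92 ± 0.29, adjusted p = 0.0392) and Phgdh (-1.55 ± 0.45, adjusted p = 0.0282) did not. Their highest adjusted p values were 0.129 without ZT21 replicate 1, 0.0576 without ZT21 replicate 2, 0.138 without ZT21 replicate 4 and 0.186 without ZT15 replicate 1. Without ZT15 replicate 1 the change of Phgdh was -0.95, adjusted p = 0.186. The replicate block in the 8 libraries alone ended the calls of Trib3 (0.126) and Psat1 (0.056). In cholesterol synthesis 2 of 23 rose and 1 fell (13.0%). Dhcr7, the last step of one branch, rose (0.55 ± 0.14, adjusted p = 0.00998), as did Pmvk (0.91 ± 0.28, adjusted p = 0.0383; highest 0.117 without ZT15 replicate 1), and squalene synthase Fdft1 fell (-0.69 ± 0.18, adjusted p = 0.0149; 0.0648 without ZT15 replicate 2, 0.0564 without ZT21 replicate 3).

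In glucose uptake and glycolysis 1 of 20 rose and 1 fell (10.0%): phosphofructokinase Pfkp went from 42.6, 58.0, 59.2 and 68.6 CPM to 102, 118, 102 and 141 CPM (log2 fold change 1.02 ± 0.20 (SE), adjusted p = 0.00154), and Pdk2 fell slightly (-0.25 ± 0.08, adjusted p = 0.0359), a call lost in 6 of the 8 fits that left out 1 library (highest adjusted p 0.118, without ZT15 replicate 4) and with the replicate block in the 8 libraries alone (0.131). In insulin signalling Trib3 rose and Irs3 (-0.73 ± 0.23, adjusted p = 0.045) and Akt1 (-0.31 ± 0.10, adjusted p = 0.04) fell, of 16 tested (18.8%). With the replicate block the last pair had adjusted p values of 0.0584 and 0.0504 (0.135 for Irs3 in the 8 libraries alone), and their highest values with 1 library left out were 0.29 without ZT15 replicate 1 and 0.138 without ZT21 replicate 4. Without ZT15 replicate 1 the change of Irs3 was -0.37, adjusted p = 0.29, and in the 4 libraries lowest in muscle markers it was -0.09. In branched-chain amino acid breakdown 2 of 19 fell (10.5%), the aminotransferase Bcat2 (148, 145, 123 and 149 CPM against 92.1, 104, 95.2 and 95.4 CPM, -0.55 ± 0.13, adjusted p = 0.0076) and Ivd (-0.26 ± 0.08, adjusted p = 0.0335; highest 0.118 without ZT15 replicate 2, and 0.0655 with the replicate block in the 8 libraries alone). Of 19 cell cycle genes Cdkn1a and Ccne1 (1.03 ± 0.25, adjusted p = 0.00914) rose and Ccnd3 fell (-0.26 ± 0.09, adjusted p = 0.0469; highest 0.163 without ZT15 replicate 3, and 0.0704 with the same block), 15.8% called. Ccne1 did not pass in the 8 libraries alone (0.0746), nor there with the replicate block (0.0511). None of 15 glycogen genes passed in edgeR across the 32 libraries, and 5 had an unadjusted p under 0.05. Ppp1r3c passed with DESeq2 and without ZT15 replicate 1, and Gys1 with library size alone. With the replicate block in the 8 libraries alone 5 passed (Gbe1, Ppp1r3c, Pygl, Pygm and Ugp2), 3 of them higher and 2 lower.

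**Figure D5:**
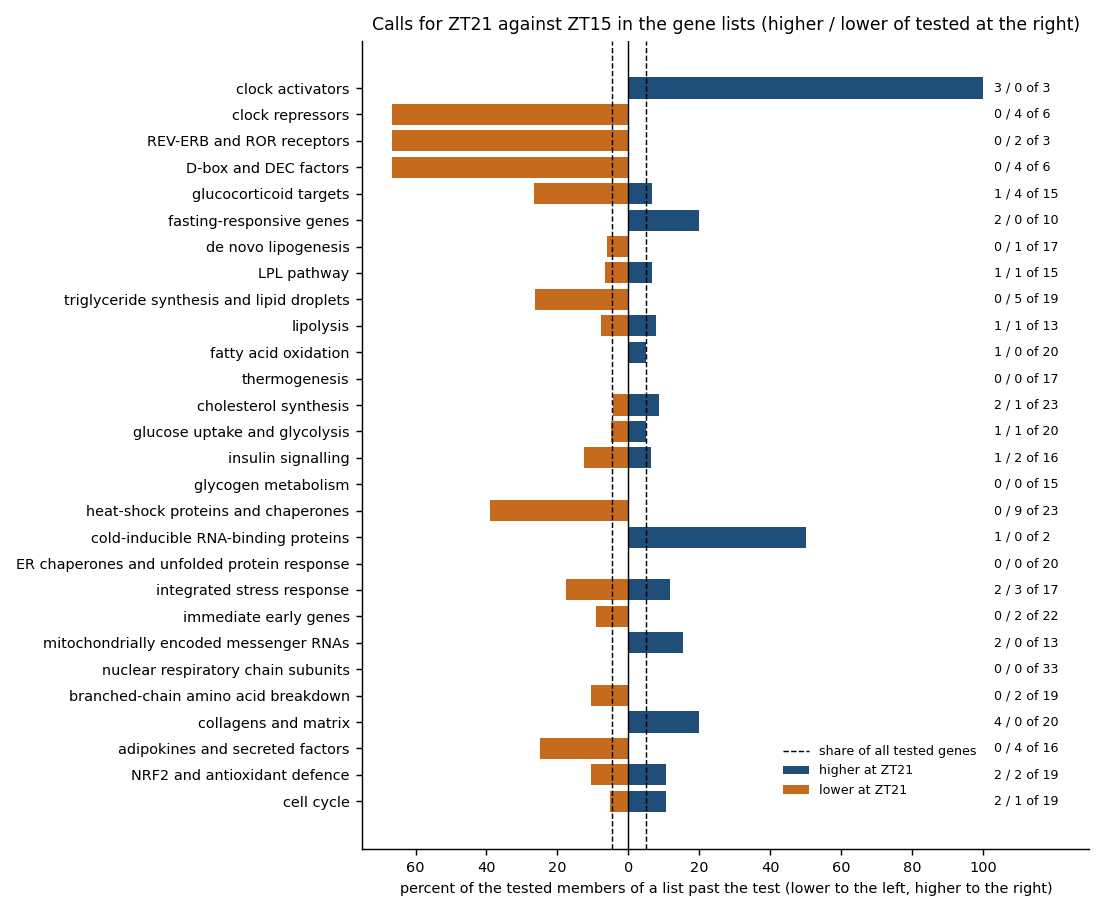
Share of the tested members of each of the 28 gene lists that passed edgeR's quasi-likelihood test, in percent (horizontal axis), with genes lower at ZT21 to the left and genes higher at ZT21 to the right. Dashed lines give the shares over all tested genes (4.69% lower and 5.0% higher), and among lists with more than 2 members the clock lists and the heat-shock list hold the largest shares.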

How the data were processed

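RNA-seq was performed on iBAT of 32 mice, 1 library each. The authors mapped the reads to mm10 with GSNAP and counted them per gene with HTSeq 0.6.1, and the raw counts were used as deposited. Whether counting used strand is not given in the sources used here. Of 50686 genes, 20100 had no count, and the 15505 kept by filterByExpr held 99.9% of all counts. One generalised linear model with a term per time was fitted to the 32 libraries (edgeR 4.0.16 in R 4.3.3, TMM factors, quasi-likelihood test, BH threshold 0.05), after tests on simulated data. Named genes are the 12 with the largest change in each direction among genes past the test whose mean reached 1 CPM and whose libraries did not overlap, together with the members of 28 lists that passed and uncalled members of interest, chosen after their values were seen. 1 list member is not reported here. The comparison and lists were chosen with earlier results of these data known.

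Same-numbered mice of ZT15 and ZT21 deviated together, with correlations of 0.478, 0.253, 0.147 and 0.498 for replicates 1 to 4. The labels give the numbers and no meaning for them, and differently numbered mice also correlated by up to 0.451, so the fit with the replicate number as a block is an alternative. Other alternatives were DESeq2 1.42.0 size factors and Wald test, library size alone, other filters and thresholds, the 8 libraries alone, each library left out, and adjustments for muscle markers. Gene coordinates are from GENCODE vM21 (GRCm38), which is not the release used for counting, and promoters are the 250 bases before RefSeq starts on GRCm38. The mitochondrial share was tested with scipy 1.17.1, and figures were drawn with matplotlib 3.10.9.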

Additional observations from a re-analysis of the deposited data

Results flagged for a closer look

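Among 222 groups of 4 libraries examined, 16 held a library whose distance to its nearest neighbour took up more of the group's range than Dixon's 95% critical value of 0.829 allows, where chance gives about 1 in 20. All were at ZT15: 9 in replicate 1, 6 in replicate 2 and 1 in replicate 3. Replicate 1 was highest for Magel2 (9.51 CPM, next library 1.12), Nnat (90.2, next 21.0), Plppr3 (3.78, next 1.30), Gm7901 (10.5, next 3.78) and the mitochondrially encoded share of counts (26.7%, next 23.3%). It was lowest for Mt1 (68.6 CPM, next 81.5), Scd1 (14810, next 42965), Thrsp (1238, next 3244) and Ucp1 (1134, next 1911). Replicate 2 was highest for Ciart (7.39 CPM, next 4.72), mt-Nd1 (21361, next 19156) and Dio2 (30.6, next 13.3), and lowest for Hsph1 (63.1, next 145), Dnajb1 (26.9, next 55.1) and Chordc1 (53.2, next 72.9). Replicate 3 was lowest for Bcat2 (123 CPM, next 145).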

How the results depend on the processing

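Against 1502 genes called between ZT15 and ZT21 (775 higher, 727 lower), 613 passed at an adjusted p under 0.01 (331 higher, 282 lower), and 32 passed a test against a 1.5-fold change (19 and 13). In the 4 libraries lowest in skeletal muscle markers 214 passed (129 and 85), and 64 of the named calls were lost. Both the number of libraries and the mice kept changed in that fit, and their parts in the loss were not tested. That restriction and the muscle covariate were chosen after seeing the data. With 1 library left out 1024 to 1472 genes passed, 520 to 812 higher and 479 to 660 lower. With the replicate block 1453 genes passed in the 32 libraries, losing Gm7901, Gpat4, Irs3, Akt1, mt-Nd1 and Col5a3 and no other named call, and 1591 in the 8 libraries alone, losing Plppr3, Srebf1, Pdk2, Irs3, Trib3, Psat1, mt-Nd1, Ivd, Col5a3, Ccne1 and Ccnd3 (adjusted p 0.0511 to 0.224) and gaining Per1 (0.0176) and Zbtb16 (0.0157). DESeq2 size factors (1489), DESeq2's own test (1660), no filter (1042), the 8 libraries alone (1302) and leaving out mitochondrially encoded genes (1494) stayed within 1.5 times. The 8 libraries alone, without the block, lost 18 named calls: Magel2, Plppr3, Gm7901, Srebf1, Gpat3, Plin4, Ces1f, Pdk2, Irs3, Trib3, Psat1, Phgdh, mt-Nd1, Ivd, Col5a3, Igfbp5, Ccne1 and Ccnd3 (0.0535 to 0.146). No filter lost 11: Gm7901, Gpat4, Pdk2, Irs3, Akt1, Trib3, Psat1, mt-Nd1, Ivd, Vegfa and Ccnd3 (0.0506 to 0.158). The muscle covariate lost 9 (Magel2, Gm7901, Gpat4, Pmvk, Irs3, Akt1, Psat1, mt-Nd1 and Ccnd3, 0.052 to 0.0898) and gained Rora (0.0483). The gains listed here are those among the 110 genes recomputed. Other list members also passed in some fits only, such as Lpin1 of the triglyceride list with the muscle covariate. Library size alone lost 8 (Gm7901, Aqp7, Akt1, mt-Nd1, Col4a1, Col4a2, Col5a3 and Ccnd3), and robust empirical Bayes lost Gm7901 and Irs3. Within lane 4 the 320 genes became 187 with library size alone, 190 without a filter, 649 in the 8 libraries alone, 539 with DESeq2, 101 to 211 with 1 library left out, and 0 in edgeR's test against a 1.5-fold change, where 217 had an unadjusted p under 0.05. None of the 91 called genes that were recomputed changed direction. Uncalled genes near 0 did: with 1 library left out Ucp1 ranged from -0.17 to 0.15 and Hsp90aa1 from -0.013 to 0.24 on the log2 scale, and in the 4 libraries lowest in muscle markers Bhlhe40 was at 0.13 and Ucp1 at 0.072. The mitochondrially encoded share moved by -1.90 to -0.46 percentage points with 1 library left out. The cause of these changes was not tested. At 0.172 CPM for 3 counts in 1 library, Npas2 at ZT15 lay at the limit of detection.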
